A study of Mus musculus with 20 samples.

Results

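The insulin-like growth factor (IGF) system was described here through 10 genes of the deposited expression table, chosen by name: the ligands Igf1 and Igf2, the receptors Igf1r and Igf2r, and the binding proteins Igfbp2, Igfbp3, Igfbp4, Igfbp5, Igfbp6 and Igfbp7. They are 10 of 18722 genes in the table, and all 10 were among the 12687 genes that passed the filter on low values (5 or more libraries with an FPKM of 1 or more). Bulk RNA had been sequenced from tumours grown from the mouse cervical cancer line U14, with 5 libraries in each of 4 groups. The groups are named Solution (a control whose composition is not described), Plerixafor (a drug that blocks CXCR4, a chemokine receptor), anti-PD-1 (an antibody against the T cell checkpoint receptor PD-1) and Combination. The labels give no mouse strain, age, dose or schedule, and do not spell out what the Combination group received; from the group names it is taken as both agents. They also do not say whether the 5 libraries of a group came from separate animals, so the p-values reflect library-to-library spread, part of which may be technical.

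IGF1 and IGF2 are secreted peptides that signal growth and survival through the receptor tyrosine kinase encoded by Igf1r, which acts through insulin receptor substrates on the PI3K-AKT-mTOR pathway. The Igf2r product, the cation-independent mannose 6-phosphate receptor, binds IGF2 and carries it to lysosomes without passing on a growth signal. The binding proteins hold the ligands outside cells and can restrain or prolong their action; the Igfbp7 product binds IGFs only weakly. In tumours, stromal fibroblasts and macrophages are known sources of IGF1, while Igf2 is an imprinted gene of fetal growth that many tumours express.

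The libraries divided in a way that touches every result below. Between 16565807 and 19833872 reads were recovered per library. The first principal component, 68.4% of the variance, set the Plerixafor and Combination libraries (22.75 to 94.33) apart from those of Solution and anti-PD-1 (-78.6 to -43.51). Some marker lists also differed between Plerixafor and Solution. All 12 fibroblast and all 9 macrophage markers fell (33.2% of all genes fell), and all 10 proliferation markers rose (42.3% of all genes rose). The libraries did not divide fully by the stromal lists. Anti-PD-1 library 1 had fibroblast and macrophage sums of 1991 and 1531 FPKM, below the 2369 and 6154 FPKM of Plerixafor library 5. Against the label of a cervical cancer, the 7 epithelial markers summed to between 744 and 1156 FPKM in Plerixafor and Combination, to between 109 and 912 FPKM in Solution, and to between 9.25 and 215 FPKM in anti-PD-1, where they were nearly absent from some libraries. Of the 7, Krt8 and Krt18 rose in Plerixafor against Solution (2.87 and 3.27 on the log2 scale), while Epcam, Krt19, Krt5 and Cdh1 fell (-3.02, -3.59, -3.72 and -2.03) and Krt14 did not pass, so the list as a whole did not move one way. In bulk tissue, fewer cells of a type and less RNA per cell cannot be told apart. Plerixafor library 5 and anti-PD-1 library 1 stood apart from their groups, and some of the members' results are given below with and without them.

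In Plerixafor against Solution, Combination against Solution and Combination against anti-PD-1, 5 members passed the test with no overlap between the libraries of the groups. Igf1, Igf2r and Igfbp5 were lower in the first-named group, and Igf1r and Igfbp4 were higher. Over all tested genes, the libraries did not overlap for 70.6%, 75.1% and 53.7% in these comparisons, so lack of overlap was common in each comparison taken singly. The share of genes that passed without overlap in all 3 was not computed. Plerixafor and anti-PD-1 were not compared by a test, and their libraries overlapped for Igf1, Igfbp4 and Igfbp5. The promoters of these 5 members are shown because they passed without overlap in all 3 comparisons. Igfbp7 also passed in all 3, but its libraries overlapped in Combination against anti-PD-1, and its promoter is not shown. Each stretch runs from 250 bases before to 50 bases after the annotated RefSeq start in GRCm38.p6 (the submitters' processing notes name GRCm39), 5′ to 3′ on the gene's strand. They lie at chr7:67952007-67952306 on the plus strand (Igf1r), chr11:99040994-99041293 on the plus strand (Igfbp4), chr10:87860861-87861160 on the plus strand (Igf1), chr17:12769657-12769956 on the minus strand (Igf2r) and chr1:72874816-72875115 on the minus strand (Igfbp5). Capitals mark matches to TATAAA or GGGCGG on either strand; where 2 matches adjoin they share no base.
Igf1r: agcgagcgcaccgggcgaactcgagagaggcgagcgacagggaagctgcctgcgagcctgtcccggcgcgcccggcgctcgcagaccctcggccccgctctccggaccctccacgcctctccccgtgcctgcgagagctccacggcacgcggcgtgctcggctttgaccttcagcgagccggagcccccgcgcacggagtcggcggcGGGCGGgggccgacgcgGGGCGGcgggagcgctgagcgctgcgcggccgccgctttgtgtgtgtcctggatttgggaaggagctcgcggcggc
Igfbp4: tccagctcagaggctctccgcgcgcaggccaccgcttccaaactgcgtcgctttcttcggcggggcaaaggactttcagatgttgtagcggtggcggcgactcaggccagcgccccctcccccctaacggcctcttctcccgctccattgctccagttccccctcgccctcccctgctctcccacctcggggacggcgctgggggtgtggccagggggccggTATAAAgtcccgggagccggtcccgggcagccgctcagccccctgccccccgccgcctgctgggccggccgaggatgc
Igf1: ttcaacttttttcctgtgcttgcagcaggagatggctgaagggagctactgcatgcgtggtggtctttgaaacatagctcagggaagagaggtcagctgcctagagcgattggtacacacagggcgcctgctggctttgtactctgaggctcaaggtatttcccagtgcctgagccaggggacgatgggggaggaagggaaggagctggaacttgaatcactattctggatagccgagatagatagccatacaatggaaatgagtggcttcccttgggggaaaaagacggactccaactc
Igf2r: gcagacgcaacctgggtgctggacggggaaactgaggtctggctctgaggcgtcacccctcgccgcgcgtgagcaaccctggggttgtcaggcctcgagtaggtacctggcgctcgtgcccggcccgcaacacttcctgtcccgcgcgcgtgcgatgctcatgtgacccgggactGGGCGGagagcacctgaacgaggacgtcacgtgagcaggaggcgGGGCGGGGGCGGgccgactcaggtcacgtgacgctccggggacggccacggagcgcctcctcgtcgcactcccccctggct
Igfbp5: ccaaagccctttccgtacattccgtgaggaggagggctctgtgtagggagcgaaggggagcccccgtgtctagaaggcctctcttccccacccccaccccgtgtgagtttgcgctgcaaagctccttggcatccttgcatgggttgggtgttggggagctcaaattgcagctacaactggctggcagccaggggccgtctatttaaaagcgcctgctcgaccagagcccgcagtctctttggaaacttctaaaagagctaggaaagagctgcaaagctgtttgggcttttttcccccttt

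The Igf1r window held 48 CpG dinucleotides, more than 98.8% of the 32851 promoter windows of the same length, whose median was 7. It held 2 matches to GGGCGG and none to TATAAA. The Igf2r window held 34 CpG and 3 matches to GGGCGG, although Igf2r fell where Igf1r rose. The Igfbp4 window held 27 CpG and 1 match to TATAAA. The Igf1 window held 6 CpG and the Igfbp5 window 10 CpG, with no match to either motif. Of all windows, 13.6% held TATAAA and 35.7% held GGGCGG. Among the members shown, CpG content thus did not separate those that rose from those that fell. RefSeq lists 4 starts for Igf2, and a gene-level value does not tell them apart.

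Of the 10 members, 7 passed the test in Plerixafor against Solution: Igf2, Igf1r and Igfbp4 rose, and Igf1, Igf2r, Igfbp5 and Igfbp7 fell. The test was limma on log2(FPKM + 1) with Benjamini-Hochberg adjustment over all tested genes at 0.05. Of all tested genes, 75.5% were called here, 42.3% higher and 33.2% lower, so the members' count of 7 of 10 is near the background. The same genes passed in the same directions in Combination against Solution, where 76.1% of all genes were called, 42% higher and 34.1% lower. In Combination against anti-PD-1, 7 members also passed, with a background of 74.6% (43.7% higher and 30.9% lower): Igf1r, Igfbp2 and Igfbp4 were higher, and Igf1, Igf2r, Igfbp5 and Igfbp7 were lower. Igf2 alone passed among the members in anti-PD-1 against Solution, where 11.5% of all genes were called, 8.38% higher and 3.08% lower. The libraries of the groups did not overlap for 7 members in Plerixafor against Solution (70.6% of all genes), 7 in Combination against Solution (75.1%), 5 in Combination against anti-PD-1 (53.7%), 2 in anti-PD-1 against Solution (5.69%) and none in Combination against Plerixafor (0.41%). The comparisons share libraries, so they are not independent of each other.

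**Figure D1:**
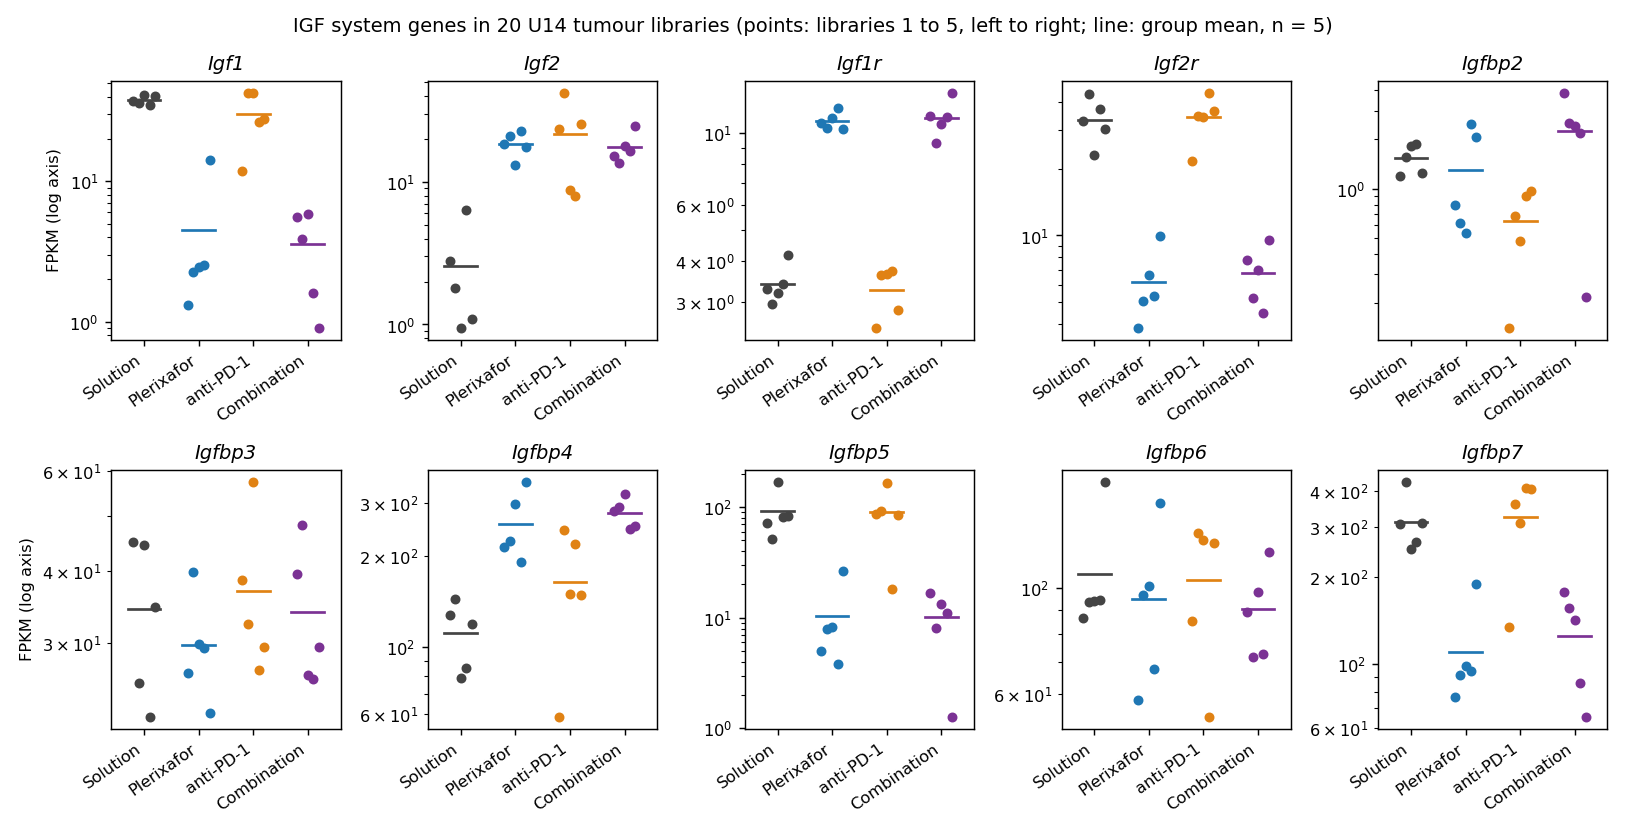
FPKM of each IGF system gene (log axis, each panel with its own range) in the 5 libraries of each group, with the group mean as a line. Igf1r lies between 9.32 and 13.3 FPKM in the 10 Plerixafor and Combination libraries and between 2.48 and 4.18 FPKM in the other 10.

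The ligands exchanged places. Igf1 was the major ligand transcript in Solution tumours, with 37.2, 36.1, 41.0, 34.9 and 40.3 FPKM in libraries 1 to 5. It was 1.30, 2.25, 2.45, 2.52 and 14.1 FPKM in the Plerixafor libraries. In the anti-PD-1 group it was 11.8, 42.4, 42.8, 26.5 and 27.7 FPKM, and 5.60, 3.91, 5.86, 1.60 and 0.895 FPKM in the Combination libraries. The Plerixafor and Solution libraries did not overlap, and Plerixafor library 5 was the high one of its group. The mean level was 8.37-fold lower in Plerixafor (4.52 ± 5.37 against 37.9 ± 2.66 FPKM, SD, n = 5 each). On the log2(FPKM + 1) scale Igf1 fell by 3.19 (SE 0.45, limma adjusted p = 4.676e-06), and by 3.65 without Plerixafor library 5. It fell by 3.26 in Combination against Solution (adjusted p = 3.605e-06 in limma) and by 2.82 in Combination against anti-PD-1 (adjusted p = 1.928e-05 in limma). The log2 difference between anti-PD-1 and Solution was -0.44 (SE 0.45, adjusted p = 0.477 in limma).

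All 12 fibroblast markers were lower in the 3 comparisons in which Igf1 was lower. Of all tested genes, 33.2% were lower in Plerixafor against Solution, 34.1% in Combination against Solution and 30.9% in Combination against anti-PD-1. Their summed level was 6532 to 10678 FPKM in Solution and 570 to 2369 FPKM in Plerixafor. It was 1991 to 9429 FPKM in anti-PD-1 and 461 to 1759 FPKM in Combination. No marker of the list was at 0 in any library. Plerixafor library 5, highest of its group in Igf1, was also highest in fibroblast markers (2369 FPKM) and in macrophage markers (6154 FPKM against 1358 to 2281 FPKM in the other 4). Anti-PD-1 library 1, lowest of its group in Igf1, was lowest in fibroblast markers (1991 FPKM) and macrophage markers (1531 FPKM). Combination library 5, the lowest of all 20 in Igf1, was lowest of all in both lists (461 and 804 FPKM). Within Solution the order differed: library 3 had the most Igf1 (41.0 FPKM) and the lowest fibroblast sum (6532 FPKM), and library 2 the highest sum (10678 FPKM) with 36.1 FPKM of Igf1. The part of these cells in the Igf1 result was not tested.

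Igf2 moved the other way. It was 2.81, 1.81, 0.940, 6.31 and 1.09 FPKM in the Solution libraries and 18.4, 21.1, 13.04, 22.6 and 17.4 FPKM in the Plerixafor libraries. It was 15.1, 13.5, 17.9, 16.5 and 24.5 FPKM in the Combination libraries. In the anti-PD-1 libraries it was 23.5, 42.1, 8.79, 7.99 and 25.3 FPKM. All 15 treated libraries were above all 5 Solution libraries, and the anti-PD-1 libraries spread the most. Mean levels were 2.59 ± 2.21 FPKM in Solution, 18.5 ± 3.69 in Plerixafor, 21.5 ± 14.01 in anti-PD-1 and 17.5 ± 4.26 in Combination (SD, n = 5 each). Igf2 rose by 2.60 on the log2 scale in Plerixafor (SE 0.39, limma adjusted p = 9.58e-06) and by 2.52 in Combination (SE 0.39, limma adjusted p = 1.354e-05). Between Combination and Plerixafor it did not pass, with both groups' libraries overlapping.

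The anti-PD-1 rise of Igf2, 2.58 on the log2 scale (SE 0.39, limma adjusted p = 0.01358), was of about the same size but rested on more variable libraries. Skeletal muscle markers (10 genes, none at 0 in any library) took 20.7, 6.17, 2.59, 0.0375 and 7.19% of all FPKM in anti-PD-1 libraries 1 to 5. They took 0.00141 to 0.328% in Solution libraries, 0.00988 to 0.262% in Plerixafor and 0.00258 to 0.250% in Combination. The 3 anti-PD-1 libraries with the most Igf2 were the 3 with the most muscle transcripts. Without them the Igf2 difference was 1.57 (limma adjusted p = 0.3676). Leaving out anti-PD-1 library 5 alone gave 2.47 (limma adjusted p = 0.05097). The call was also lost without Solution libraries 3 and 5, the 2 with the highest skin keratinocyte markers (limma adjusted p = 0.1094), and when only these 2 groups were fitted (limma adjusted p = 0.173). In these fits the Igf2 difference was 2.15 and 2.58 (limma unadjusted p = 0.0001242 and 0.0004072). Over all genes, 1 and 0 passed in them. Anti-PD-1 library 4, with 0.0375% muscle transcripts, still held 7.99 FPKM of Igf2, above every Solution library. The Plerixafor and Combination libraries held 13.04 to 24.5 FPKM of Igf2 with muscle transcripts within the range of the Solution libraries. The part of muscle in the anti-PD-1 result was not tested.

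**Figure D2:**
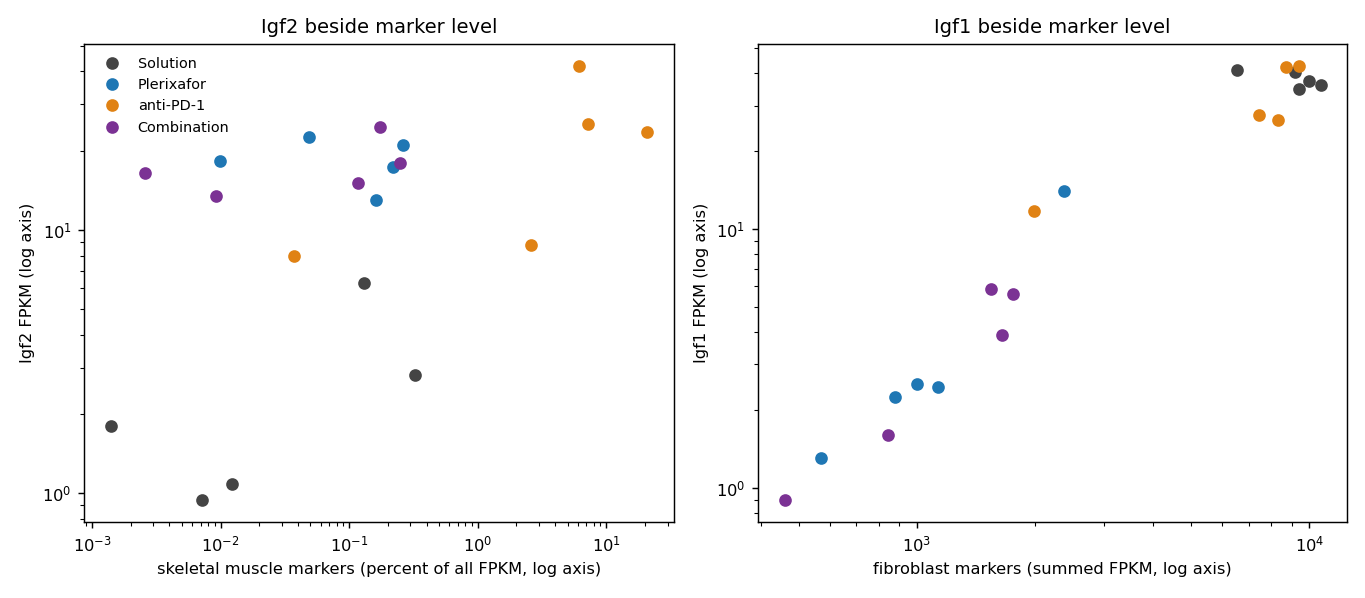
Left, Igf2 FPKM against the share of all FPKM taken by 10 skeletal muscle markers, and right, Igf1 FPKM against the summed FPKM of 12 fibroblast markers, 1 point per library, all axes logarithmic. The 3 anti-PD-1 libraries with 23.5, 42.1 and 25.3 FPKM of Igf2 lie at 6.17 to 20.7% muscle transcripts, while Plerixafor and Combination libraries reach 13.04 to 24.5 FPKM at 0.262% or less.

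Whether anti-PD-1 had the same effect on each member with and without Plerixafor was tested as an interaction, the difference Combination minus Plerixafor less the difference anti-PD-1 minus Solution. No member passed (limma, background 0% of all genes), while 2 members, Igf2 and Igfbp2, were under an unadjusted p of 0.05, as were 1957 of all genes. By limma-voom on recovered reads no member and 1 gene of all passed. The Igf2 term was -2.66 (SE 0.56, unadjusted p = 0.0001374, limma adjusted p = 0.1987), made up of 2.58 for anti-PD-1 against Solution and -0.08 for Combination against Plerixafor. Without anti-PD-1 library 4 it was -2.93 and passed (limma adjusted p = 0.001823).

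The ratio of the ligands summarises both changes. Igf2 to Igf1 in FPKM was 0.0229 to 0.181 in Solution libraries, 0.206 to 2.00 in anti-PD-1, 1.24 to 14.1 in Plerixafor and 2.70 to 27.4 in Combination. Igf1 exceeded Igf2 in every Solution library, and Igf2 exceeded Igf1 in every Plerixafor and Combination library. Only 1 anti-PD-1 library, library 1, had more Igf2 than Igf1.

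The receptors also changed in opposite directions, with little spread for Igf1r. Igf1r, the signalling receptor, was 3.27, 2.95, 3.18, 3.41 and 4.18 FPKM in Solution and 10.8, 10.4, 11.2, 11.9 and 10.3 FPKM in Plerixafor libraries. It was 2.48, 3.64, 3.65, 3.73 and 2.83 FPKM in anti-PD-1 and 11.3, 9.32, 10.7, 11.2 and 13.3 FPKM in Combination libraries. The 2 pairs of groups were wide apart, and within each pair the libraries overlapped. The mean was 3.21-fold higher in Plerixafor than in Solution, 10.9 ± 0.673 against 3.40 ± 0.467 FPKM (SD, n = 5 each). Igf1r rose by 1.44 on the log2 scale (SE 0.10, limma adjusted p = 8.664e-10). In Combination it rose by 1.46 against Solution (limma adjusted p = 6.563e-10) and by 1.51 against anti-PD-1 (limma adjusted p = 4.968e-10). In Plerixafor library 5 Igf1r was 10.3 FPKM, the lowest of its group by a narrow margin. That library stood apart in the stromal markers and was lowest of its group in proliferation markers (413 FPKM against 695 to 788 FPKM in the other 4). The part of cell makeup and proliferation in the Igf1r result was not tested.

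Igf2r, the clearance receptor, was 32.9, 43.3, 23.0, 37.1 and 30.2 FPKM in Solution and 3.82, 5.05, 6.66, 5.33 and 9.94 FPKM in Plerixafor libraries. It was 21.7, 34.7, 34.3, 44.0 and 36.4 FPKM in anti-PD-1 and 7.78, 5.24, 6.97, 4.45 and 9.56 FPKM in Combination libraries. Every Plerixafor and Combination library was below every other library. Igf2r fell by 2.29 in Plerixafor (SE 0.23, limma adjusted p = 6.545e-08). In Combination it fell by 2.15 against Solution (limma adjusted p = 1.447e-07) and fell by 2.18 against anti-PD-1 (limma adjusted p = 1.154e-07). Between anti-PD-1 and Solution the log2 difference was 0.03 for Igf2r and -0.05 for Igf1r, neither past the threshold (limma adjusted p = 0.925 and 0.737).

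In FPKM, which is per length, Igf2r was 7.21 to 14.7 times Igf1r in Solution libraries and 8.75 to 12.8 times in anti-PD-1. The ratio was 0.355 to 0.963 in Plerixafor and 0.398 to 0.718 in Combination. The order of the receptor transcripts was thus inverted in all 10 Plerixafor and Combination libraries.

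**Figure D3:**
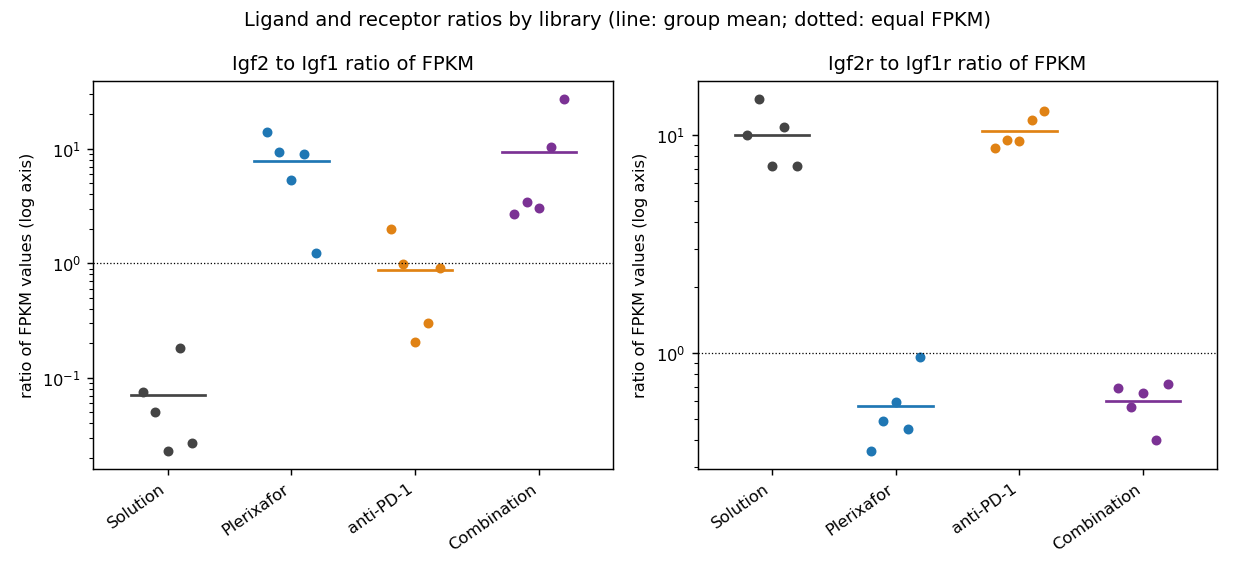
Ratio of Igf2 to Igf1 (left) and of Igf2r to Igf1r (right) in FPKM for each library, on log axes, with the group mean as a line and equal FPKM dotted. The Igf2r to Igf1r ratio is at least 7.21 in all Solution and anti-PD-1 libraries and at most 0.963 in all Plerixafor and Combination libraries.

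Among the binding proteins, Igfbp4 rose, Igfbp5 and Igfbp7 fell, and Igfbp3 and Igfbp6 passed in none of the comparisons. Igfbp4, an inhibitor of IGF action that is cleaved by the protease PAPP-A, was 127, 144, 79.0, 85.3 and 119 FPKM in Solution and 214, 224, 298, 190.5 and 353 FPKM in Plerixafor libraries. It was 58.6, 243, 149, 219 and 148 FPKM in anti-PD-1 and 281, 289.5, 319.8, 245 and 251 FPKM in Combination libraries. The Combination libraries were above all anti-PD-1 libraries, by a narrow margin for anti-PD-1 library 2. Igfbp4 rose by 1.20 in Plerixafor (SE 0.29, limma adjusted p = 0.00117). In Combination it rose by 1.35 against Solution (limma adjusted p = 0.0004159) and by 0.90 against anti-PD-1 (limma adjusted p = 0.009659). The last difference was 0.57 without anti-PD-1 library 1. Against Solution, the anti-PD-1 difference of Igfbp4 was 0.44 (SE 0.29, limma adjusted p = 0.2723), and it passed without that library, at 0.77 (limma adjusted p = 0.03377).

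Igfbp5, a binding protein that attaches to extracellular matrix, was 71.9, 51.8, 171, 80.9 and 83.5 FPKM in Solution and 4.98, 7.97, 8.26, 3.86 and 26.3 FPKM in Plerixafor libraries. It was 86.9, 92.8, 165, 18.4 and 84.7 FPKM in anti-PD-1 and 16.6, 8.15, 13.3, 11.1 and 1.27 FPKM in Combination libraries. Its mean was 8.92-fold lower in Plerixafor than in Solution. Igfbp5 fell by 3.22 on the log2 scale in Plerixafor (SE 0.59, limma adjusted p = 8.654e-05) and by 3.61 without Plerixafor library 5. It fell by 3.23 in Combination against Solution (limma adjusted p = 8.26e-05) and fell by 3.03 against anti-PD-1 (limma adjusted p = 0.000166). Anti-PD-1 library 4, at 18.4 FPKM, came close to the highest Combination library at 16.6 FPKM.

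Igfbp7, a secreted protein of vessels and stroma with weak IGF binding, was 307, 431, 251, 264 and 308 FPKM in Solution and 76.9, 91.4, 98.3, 94.8 and 190.03 FPKM in Plerixafor libraries. It was 135, 359.7, 309, 410.04 and 405 FPKM in anti-PD-1 and 177, 157, 142, 85.6 and 65.3 FPKM in Combination libraries. Only anti-PD-1 library 1, at 135 FPKM, fell within the Combination range. Igfbp7 fell by 1.54 in Plerixafor (SE 0.32, limma adjusted p = 0.0002966). In Combination it fell by 1.38 against Solution (limma adjusted p = 0.0008198) and by 1.36 against anti-PD-1 (limma adjusted p = 0.0009921). Without Plerixafor library 5 the Plerixafor difference of Igfbp7 was -1.76. Without anti-PD-1 library 1 its difference between Combination and anti-PD-1 was -1.64. Beside these falls, the 8 endothelial markers summed to 120 to 166 FPKM in Solution, 47.5 to 104 FPKM in Plerixafor, 146 to 263 FPKM in anti-PD-1 and 44.1 to 88.2 FPKM in Combination, with none at 0 in any library. Of the 8, 7 fell in Plerixafor against Solution, where 33.2% of all genes fell. The part of vessels and fibroblasts in the Igfbp5 and Igfbp7 results was not tested.

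Igfbp3, the main carrier of IGFs in blood, ranged from 22.2 to 57.4 FPKM over all 20 libraries. Its log2 difference from Solution was -0.18 in Plerixafor (SE 0.24, limma adjusted p = 0.507) and -0.01 in Combination (SE 0.24, limma adjusted p = 0.98). Igfbp6, which prefers IGF2 over IGF1, ranged from 53.7 to 167 FPKM. Its difference was -0.21 in Plerixafor (SE 0.27, limma adjusted p = 0.504) and -0.22 in Combination (SE 0.27, limma adjusted p = 0.464). Both overlapped between all groups, in contrast to the members above.

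Igfbp2, a binding protein often raised in tumours, was the scarcest member. It was 1.19, 1.57, 1.81, 1.88 and 1.25 FPKM in Solution and 0.794, 0.619, 0.535, 2.47 and 2.07 FPKM in Plerixafor libraries. It was 0.140, 0.684, 0.479, 0.908 and 0.971 FPKM in anti-PD-1 and 3.85, 2.53, 2.40, 2.19 and 0.217 FPKM in Combination libraries. These values rest on 4 to 115 recovered reads. All anti-PD-1 libraries were below all Solution libraries, yet the difference of -0.65 did not pass (SE 0.30, limma adjusted p = 0.1363). Igfbp2 was higher in Combination than in anti-PD-1 by 0.88 (SE 0.30, limma adjusted p = 0.01314), with Combination library 5 inside the anti-PD-1 range. That call was lost by limma-voom on recovered reads (adjusted p = 0.06795) and without anti-PD-1 libraries 1, 2 and 5 (limma adjusted p = 0.08556). In Combination against Solution Igfbp2 differed by 0.23 (limma adjusted p = 0.501), and passed at 0.55 without Combination library 5 (limma adjusted p = 0.04211). Its interaction term was 1.10 (SE 0.43, limma adjusted p = 0.254).

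**Figure D4:**
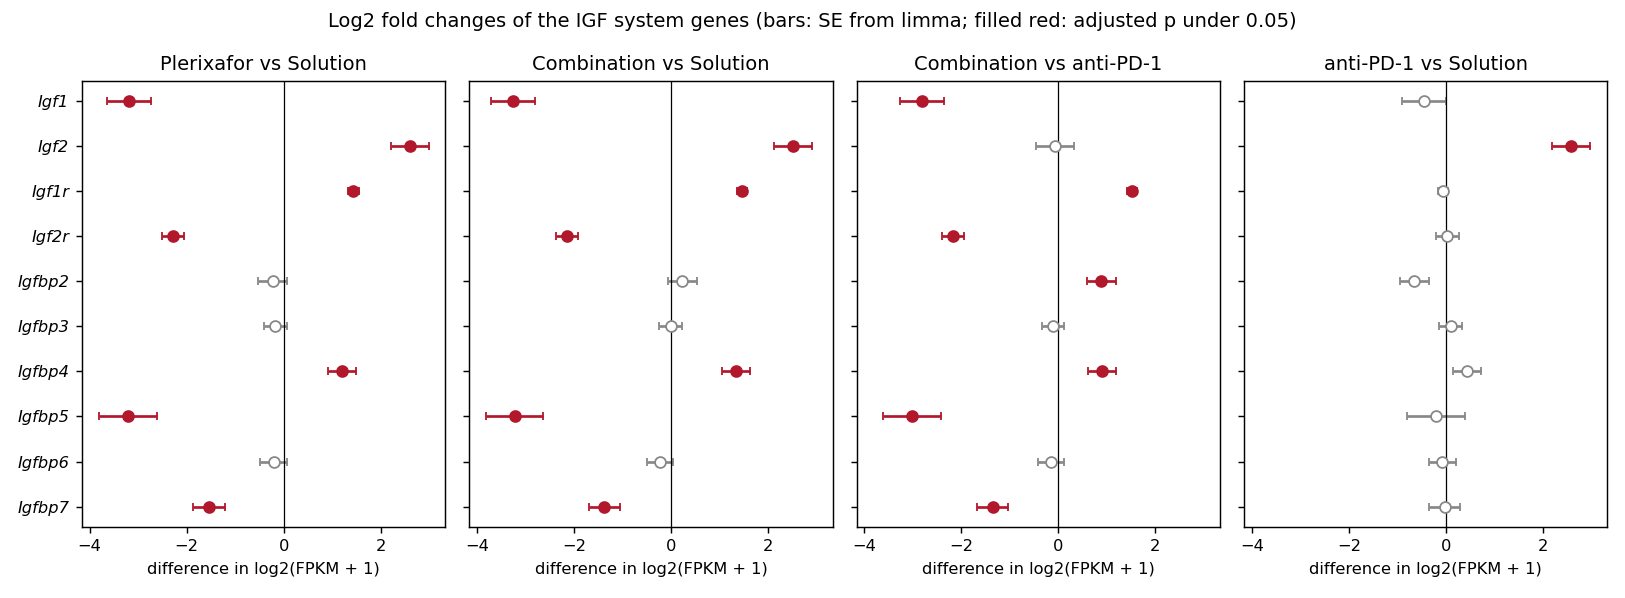
Difference in log2(FPKM + 1) of each member in 4 comparisons, with the SE from limma as bars; filled red points have an adjusted p under 0.05. Plerixafor against Solution and Combination against Solution show the same 7 called members in the same directions, and anti-PD-1 against Solution shows Igf2 alone at 2.58.

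Combination and Plerixafor libraries could not be told apart by any member. No member passed between them (limma, background 0%), none had an unadjusted p under 0.05, and limma-voom called none; over all genes 60 had an unadjusted p under 0.05. The members' log2 differences lay between -0.08 and 0.45, the largest for Igfbp2 (SE 0.30). A difference that did not pass does not show that the groups were the same.

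The makeup of the binding protein pool changed more than its total. The 6 transcripts summed to 658 ± 77.02 FPKM in Solution, 502 ± 149 FPKM in Plerixafor, 718 ± 182 FPKM in anti-PD-1 and 539 ± 78.4 FPKM in Combination (SD, n = 5 each). The sums were 381, 460, 536, 389 and 745 FPKM in Plerixafor libraries 1 to 5, against 549 to 748 FPKM in Solution. Only Plerixafor library 5 was thus within the Solution range. Anti-PD-1 library 1 had 404 FPKM, against 729 to 859 FPKM in the rest of its group. Igfbp7 was 47.2% of the pool in Solution and 44.2% in anti-PD-1, but 21.7% in Plerixafor and 22.7% in Combination. Igfbp4 was 16.7% in Solution and 22.0% in anti-PD-1, but 51.3% in Plerixafor and 51.7% in Combination. Igfbp4 took at least 46.3% in each Plerixafor and Combination library and at most 30.03% in each other library. Igfbp5 made up 14.2% in Solution and 1.82% in Plerixafor. The Igfbp6 share was 16.3% and 18.6% in the same groups.

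**Figure D5:**
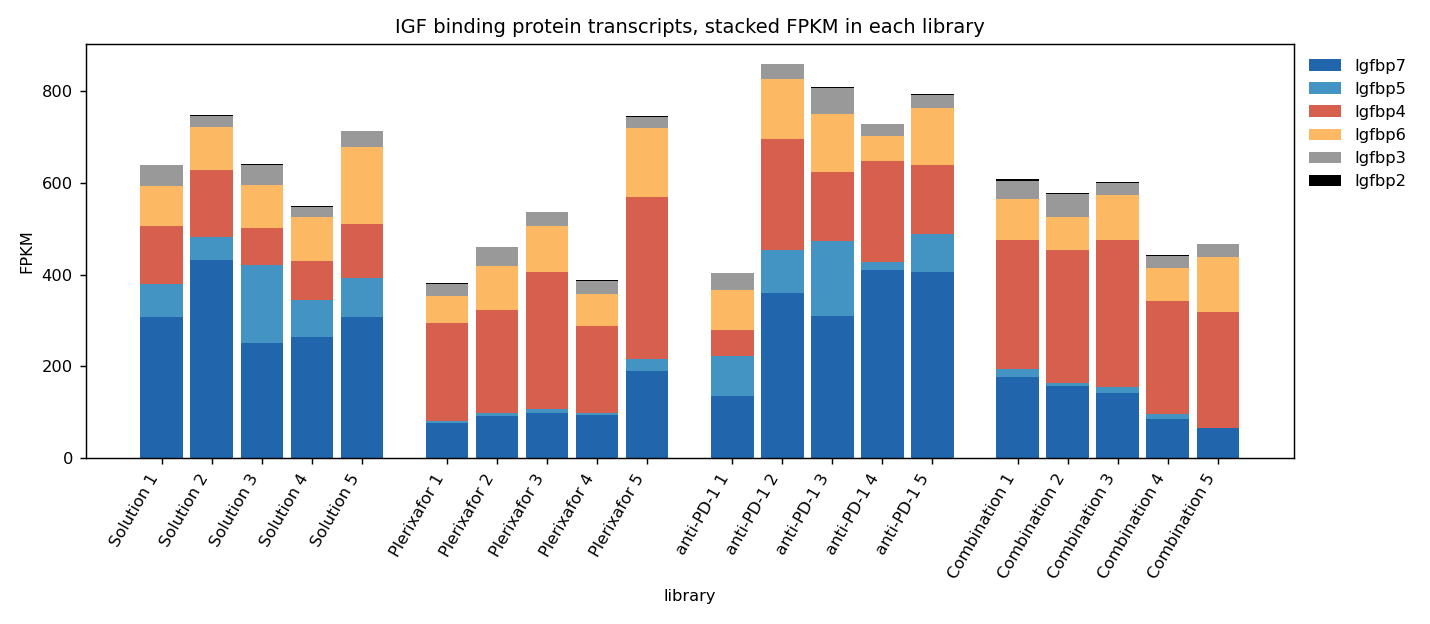
Stacked FPKM of the 6 binding protein transcripts in each of the 20 libraries. Igfbp7 is the largest band in Solution and anti-PD-1 libraries, and Igfbp4 is the largest in every Plerixafor and Combination library, at 46.3% or more of the sum.

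The order of levels followed the same division. In Solution the order by mean FPKM was Igfbp7, Igfbp4, Igfbp6, Igfbp5, Igf1, Igfbp3, Igf2r, Igf1r, Igf2 and Igfbp2. Neighbours were separated with no overlap between libraries only from Igfbp7 to Igfbp4, from Igfbp5 to Igf1 and from Igf2r to Igf1r. In anti-PD-1 the order began likewise with Igfbp7, Igfbp4, Igfbp6 and Igfbp5, but only Igf2 to Igf1r and Igf1r to Igfbp2 were separated. In Plerixafor the order was Igfbp4, Igfbp7, Igfbp6, Igfbp3, Igf2, Igf1r, Igfbp5, Igf2r, Igf1 and Igfbp2, and it was the same in Combination. Igfbp4 to Igfbp7, Igfbp6 to Igfbp3, Igfbp3 to Igf2 and Igf2 to Igf1r did not overlap in either of these groups.

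The other genes of the pathway were counted over lists chosen by function. Of the 47 tested, 39 passed in Plerixafor against Solution. Under the alternatives 33 to 39 of these 39 passed, all in the same direction. Shc1, Akt1, Mest and Stc1 lay near the threshold, with limma adjusted p-values between 0.04027 and 0.04896. Of 10 receptors and adaptors, 8 were tested, and all 8 passed in Plerixafor against Solution, 4 higher and 4 lower, where 75.5% of all genes passed, 42.3% higher and 33.2% lower. Gab1, a docking adaptor, rose by 1.33 (limma adjusted p = 1.534e-08), from 2.93 ± 0.298 to 8.94 ± 1.40 FPKM (SD, n = 5 each). Grb14, an adaptor that inhibits the insulin receptor, rose by 2.07 (limma adjusted p = 4.088e-06). Irs1, the substrate that links the IGF1 receptor to PI3K, fell by 1.88 (limma adjusted p = 2.257e-06), from 4.12 ± 0.613 to 0.416 ± 0.385 FPKM (SD, n = 5 each). Grb10, an imprinted adaptor that restrains the receptor, fell by 2.59 (limma adjusted p = 1.157e-06). The list's median log2 difference was -0.04, against 0.13 for all tested genes. In these bulk libraries the rise of Igf1r thus came with less, not more, Irs1 transcript. Bulk values do not tell whether both changed in the same cells. The part of cell makeup in the results of this list was not tested.

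Of the 19 genes of the PI3K-AKT-mTOR list, 12 rose, 1 fell and 6 did not pass in Plerixafor against Solution (42.3% of all genes rose and 33.2% fell), with a median log2 difference of 0.42 against 0.13 for all genes. Eif4ebp1, the translation repressor that mTOR inactivates, rose by 1.79 (limma adjusted p = 1.273e-08). Mtor itself rose by 0.79, Tsc2, a brake on mTOR, by 0.85, and Pik3ca, a catalytic subunit of PI3K, by 0.88, all with a limma adjusted p under the threshold. The 1 that fell was Pik3r1, a regulatory subunit, at -1.07 (limma adjusted p = 5.748e-06). Pik3r2, another regulatory subunit, rose by 0.38 (limma adjusted p = 0.02511). In Combination, 11 rose and 2 fell against Solution, where 42% of all genes rose and 34.1% fell. Against anti-PD-1, 10 rose and 4 fell, where 43.7% of all genes rose and 30.9% fell. These transcript levels say nothing of the pathway's activity, which rests on phosphorylation.

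All 5 genes of the growth hormone axis fell in Plerixafor against Solution, where 33.2% of all genes fell, with a median log2 difference of -1.69 against 0.13 for all genes. Ghr, the growth hormone receptor, was 11.6 ± 3.28 FPKM in Solution and 1.87 ± 1.39 in Plerixafor (SD, n = 5 each), a change of -2.21 (limma adjusted p = 2.673e-05). Stat5a and Stat5b, which carry the growth hormone signal to Igf1 in liver, changed by -1.69 and -1.96 (limma adjusted p = 1.541e-06 and 7.561e-06). The same 5 fell in Combination against Solution (34.1% of all genes fell), and 4 of the 5 in Combination against anti-PD-1 (30.9%). The part of cell makeup in these falls was not tested.

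Of 8 genes for IGF carriers and processing, 3 were tested. In Plerixafor against Solution Stc2, an inhibitor of the protease PAPP-A, fell by 2.44 (limma adjusted p = 0.0001149). Htra1, a protease that cleaves binding proteins, did not pass, at 0.03. Stc1 rose by 0.40 (limma adjusted p = 0.04027), from 0.854 ± 0.297 to 1.45 ± 0.371 FPKM (SD, n = 5 each). It did not pass in Combination against Solution, at 0.23 (limma adjusted p = 0.2407). Pappa itself stayed under the filter, with at most 0.777 FPKM in any library. Of the 3 IGF2 mRNA-binding proteins, Igf2bp2 was tested. In Plerixafor against Solution it rose by 1.09 (limma adjusted p = 0.006412), from 7.70 ± 3.19 to 16.6 ± 2.37 FPKM (SD, n = 5 each).

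Of 11 other imprinted genes tested, 8 fell and 2 rose in Plerixafor against Solution, where 33.2% of all genes fell and 42.3% rose. Their median log2 difference was -1.04, against 0.13 for all genes. Cdkn1c, a growth-restraining neighbour of Igf2, was 32.9 ± 3.56 FPKM in Solution and 1.69 ± 2.14 in Plerixafor (SD, n = 5 each), a change of -3.92 (limma adjusted p = 4.12e-08). Sgce and Ndn fell by 2.27 and 1.92 (limma adjusted p = 1.596e-06 and 4.211e-06). Phlda2, another gene of that imprinted region, rose by 4.43 (limma adjusted p = 9.214e-11), from 0.187 ± 0.244 to 25.3 ± 8.05 FPKM (SD, n = 5 each). One of the genes that fell, Dcn, is also a fibroblast marker of the list above. The part of cell makeup in the results of the imprinted genes was not tested.

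In anti-PD-1 against Solution 10 of the 47 pathway genes tested passed, where 11.5% of all genes did. Grb14 rose by 1.68, Insr, the insulin receptor, by 0.52, and Foxo4 and Tsc2 by 0.90 and 0.31. The imprinted genes Gnas, Peg3, Peg10 and Dlk1 rose by 0.62, 0.92, 0.52 and 1.11. Stc2 fell by 1.79, and Jak2, the kinase of the growth hormone receptor, by 0.58. Limma adjusted p-values of these 10 lay between 0.01454 and 0.04333. None of the 10 passed without anti-PD-1 library 5, without anti-PD-1 libraries 1, 2 and 5, without Solution libraries 3 and 5, or when only these 2 groups were fitted. Of all genes called in this comparison 73.1% were higher, a share that was 48.8% after quantile normalisation and 81.6% in TPM. All 10 skeletal muscle markers rose beside these genes, where 8.38% of all genes rose, and the part of muscle in these genes was not tested.

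Genes with the pattern most like each member were sought by the lower of 2 Pearson correlations, 1 over the 10 Plerixafor and Combination libraries and 1 over the other 10, so that the division between them did not set the value. These libraries share group and tissue makeup, and the values are a description over about 10972 genes. Igf1 was most like Chst15, a sulfotransferase (0.969), and Mmp2, a matrix metalloproteinase and fibroblast marker (0.964). Igfbp7 was most like Ednra, an endothelin receptor of smooth muscle (0.955), and Tmem132a (0.939). Igfbp5 was most like the mast cell proteases Mcpt4 (0.893) and Cpa3 (0.886). Igf2 was most like Mafa (0.862) and Ank1 (0.839), both of which reached their highest level in anti-PD-1 library 1.

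Likeness was lower for the rest. The nearest genes were Spon1 (0.849) and Sla2 (0.806) for Igfbp2, Lztr1 (0.842) and Rbbp6 (0.834) for Igf1r, and Sema3f (0.837) and Gjc1 (0.806) for Igfbp4. For Igf2r they were Copz2 (0.806) and Pon3 (0.791), and for Igfbp6 Fgf11 (0.746) and Add3 (0.702). Igfbp3 had no close match, with Herpud1 (0.579) and Guk1 (0.576) as its nearest. Gjc1, a gap junction protein, followed Igfbp4 within each set of 10 libraries but fell between them, from 3.18 ± 1.04 FPKM in Solution to 0.665 ± 0.339 in Plerixafor (SD, n = 5 each), where Igfbp4 rose.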

How the data were processed

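Per the labels' protocols, 20 stranded mRNA libraries, 5 in each of 4 groups, were made from total RNA of U14 tumours and run on a NovaSeq instrument. The authors deposited FPKM, that is, fragments scaled to gene length and library size, for 18722 genes named by symbol. The submitters' processing notes list DESeq2 1.28.1, StringTie 2.1.4, HTSeq 0.11.2, HISAT2 2.1.0 and the build GRCm39 without their roles; the sources used here do not say which of them gave the FPKM, nor the strand setting, so reads of overlapping or antisense genes may be mixed. FPKM values of all 18722 genes were whole multiples of 1 read to within 0.02 reads, which gave 16565807 to 19833872 reads per library. These reads served for depth and 1 alternative fit; the sources used here mention no molecular identifiers, so depth limits cover counting error only.

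Groups came from the labels. The 12687 genes that reached an FPKM of 1 in 5 or more libraries were tested as log2(FPKM + 1) in R 4.3.3 with limma 3.58.1 (empirical Bayes with a trend, all 20 libraries in 1 fit, 16 residual degrees of freedom, 6 contrasts). A fold change on this scale understates that of low genes. P-values were adjusted by Benjamini-Hochberg over all tested genes of a contrast, and 0.05 was the threshold. The fit was tested on simulated data. FPKM values sum differently between libraries: the median log2 difference over all genes in Combination against anti-PD-1 was 0.15 as deposited and -0.01 after median-of-ratios scaling.

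The members and gene lists were chosen with earlier results of these data known. The text names the members and up to 4 genes per pathway list and contrast with the smallest p past the threshold. It also names the 2 genes most like each member with a mean FPKM of at least 2. Pik3r1, Pik3r2, Shc1, Akt1, Mest, Htra1, Pappa and Dcn were named after their values were seen. Tables and figures were made with Python 3.11.15, pandas 2.3.3, NumPy 2.4.6 and Matplotlib 3.10.9. Promoter sequences are from RefSeq (GRCm38.p6), matched by symbol for 10 of 10 members; coordinates of genes were not otherwise used. The 33 alternatives covered the pseudocount, filters, scaling, fits of single comparisons, weights, limma-voom and leaving out libraries.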

Additional observations from a re-analysis of the deposited data

Results flagged for a closer look

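In each group of 5 libraries, the gap of the highest or lowest library to its nearest neighbour was set against the group's range for each member, with Dixon's critical value at 95% for 5 libraries as the limit. Of 40 groups of libraries checked, 5 were past the limit. The limit's rate of about 1 in 20 holds for independent, normally distributed values. FPKM was used here without a log and the members share libraries, so the count cannot be set against chance.

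Plerixafor library 5 was past it for 3 members. Its Igf1 level was 14.1 FPKM against 1.30 to 2.52 FPKM in the other 4 libraries (gap 0.905 of the range). Its Igfbp5 level was 26.3 FPKM against 3.86 to 8.26 FPKM (0.804), and its Igfbp7 level was 190.03 FPKM against 76.9 to 98.3 FPKM (0.811). Igf1, Igfbp5 and Igfbp7 fell in Plerixafor against Solution with that library and without it. Igfbp5 in Solution library 3 was 171 FPKM against 51.8 to 83.5 FPKM in the other 4 (0.733). Igfbp6 in Solution library 5 was 167 FPKM against 86.5 to 94.3 FPKM (0.903).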

How the results depend on the processing

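Single members were recomputed under the alternatives in the comparisons with Solution and in Combination against anti-PD-1. In Combination against Plerixafor only Igfbp2 was included, and in the interaction only Igf2 and Igfbp2. The other members of those contrasts are not in the tally. Of these 1411 values, 1349 kept their direction and side of the threshold, 47 changed sign, 9 gained a call in the same direction and 6 lost one. Of the 47, 1 also gained a call (Igf2 in Combination against anti-PD-1, below). In Plerixafor against Solution and Combination against Solution every called member kept its call and direction under each alternative run, and the sign changes were of members that had not passed. The cause of the changes below was not tested.

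In anti-PD-1 against Solution, 1454 genes passed. The count was 899 with an FPKM of at least 5, 2240 after quantile normalisation, 0 with only the groups compared, 4163 with array weights, 767 by limma-voom, and 1 each without anti-PD-1 libraries 1, 2 and 5 and without Solution libraries 3 and 5. Leaving out 1 library gave 2 (without anti-PD-1 library 5) to 4112 (without anti-PD-1 library 4). Members called went from 1 to 0 with only the groups compared (Igf2 at adjusted p = 0.173) and without either set of libraries, and to 2 with array weights, and without Plerixafor library 5 and anti-PD-1 library 1 (chosen after seeing the data); leaving out 1 library gave 0 to 2. For the interaction the count over all genes was 0, 4071 with array weights, 1 by limma-voom, and 0 to 1007 leaving out 1 library. Members called were 0, 2 with array weights (Igf2 at -3.11 and Igfbp2 at 1.36), and 0 to 1 leaving out 1 library.

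Signs changed as follows, as log2 differences. With quantile normalisation, Igfbp2 in Plerixafor against Solution was 0.061 and Igfbp7 in anti-PD-1 against Solution 0.019. In anti-PD-1 against Solution, Igfbp7 was 0.013 in TPM, and after median-of-ratios scaling Igf1r was 0.043, Igfbp6 0.051 and Igfbp7 0.10. With array weights, Igfbp3 was 0.023 in Plerixafor and 0.23 in Combination against Solution and 0.042 in Combination against anti-PD-1, and Igfbp5, Igfbp6 and Igfbp7 were 0.22, 0.15 and 0.24 in anti-PD-1 against Solution. Array weights also gave calls to Igfbp6 in Plerixafor against Solution (-0.48), Igfbp2 in Combination against Solution (0.47) and Igfbp4 in anti-PD-1 against Solution (0.84). Without anti-PD-1 libraries 1, 2 and 5, Igf1r and Igfbp7 were 0.10 and 0.22 against Solution, and in Combination against anti-PD-1 Igf2 was 0.95 (adjusted p = 0.03403, now called higher) and Igfbp6 0.10. Without Solution libraries 3 and 5, Igf1r, Igf2r, Igfbp5 and Igfbp6 were 0.0088, -0.16, 0.13 and 0.11 in anti-PD-1 against Solution, and Igfbp3 was 0.15 in Combination against Solution. Without Plerixafor library 5 and anti-PD-1 library 1, Igf1r and Igfbp7 were 0.021 and 0.27 in anti-PD-1 against Solution, and Igf2 0.031 in Combination against anti-PD-1.

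Leaving out 1 library, in anti-PD-1 against Solution, Igf1r ran from -0.089 to 0.021, Igf2r from -0.089 to 0.18, Igfbp3 from -0.067 to 0.21, Igfbp5 from -0.49 to 0.28, Igfbp6 from -0.17 to 0.15 and Igfbp7 from -0.13 to 0.27. In Combination, Igfbp3 ran from -0.15 to 0.10 against Solution and from -0.24 to 0.060 against anti-PD-1, and Igf2 from -0.33 to 0.23 against anti-PD-1.

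Same-numbered libraries of different groups did not deviate together (30 pairs, r from -0.75 to 0.51, median -0.08, 7 over 0.1), and 2 of 20 libraries were closest to their own number. With the replicate number as a block, 9461 genes passed in Plerixafor against Solution and 1169 in anti-PD-1 against Solution, against 9577 and 1454 without it. The members called were 7 and 1 with the block as without. Depth limits Igfbp2 most, with 4 to 115 reads per library.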
